A study of Mus musculus with 4 samples.

Results

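NF-kB is a family of dimeric transcription factors, and the 10 genes described here encode its 5 subunits and 5 proteins of the IkB family that bind them. They were chosen by function, as the rows whose gene symbol was Nfkb1, Nfkb2, Rel, Rela, Relb, Nfkbia, Nfkbib, Nfkbie, Nfkbiz or Bcl3, and all 10 were found among the 24421 genes listed for each library. All 10 also passed the filter on low values, a mean of at least 1 FPKM (fragments per kilobase of transcript, scaled to the mapped fragments of the library), which left 12011 genes for testing. Poly(A) RNA came from 4 animals, labelled as C57BL/6 females aged 8 weeks. The 2 controls (Usp25+/+, animals 139 and 140) have an intact Usp25, which encodes an enzyme that removes ubiquitin from proteins, and the 2 knockouts (Usp25-/-, animals 826 and 850) lack it. Per the labels every animal, controls included, drank 2.5% dextran sulfate sodium (DSS, which injures the colon lining) over 5 days, had plain water on the next 2, and gave RNA from the distal end of the colon. The sources used here do not give the part of Usp25 that was removed or say whether the controls were littermates. The comparison asks whether these transcripts differ between the genotypes.

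In resting cells, NF-kB dimers are held in the cytoplasm by the classical IkB proteins. Signals from receptors for TNF, IL-1 and microbial products activate the IKK kinases, which mark IkB proteins for ubiquitin-dependent breakdown, and the freed dimers then enter the nucleus. Several genes of the system, Nfkbia, Nfkbie, Nfkb1, Nfkb2, Rel, Relb and Nfkbiz among them, are themselves known targets of NF-kB, so that their mRNA is often read together with that of inflammatory cytokines. Transcript levels are not a measure of the proteins or of their activity, which were not analysed here.

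Start regions of 7 of the 10 genes were matched by symbol to RefSeq sequences of build GRCm38.p6, each covering 250 bases before to 50 bases after an annotated start (Nfkb2 has 3 such starts). Nfkb1, Relb and Nfkbiz were not matched. Both strands of each window were searched for the kB consensus, the degenerate 10-base motif bound by NF-kB dimers. It occurred in 7 of the 9 windows, and in 8.46% of all 32817 windows of 300 bases. Nfkb2 gives 3 of these windows, some of which overlap and share a match, so the windows are not independent. Counted by gene, it occurred in windows of 5 of the 7 genes (Nfkb2, Rel, Nfkbia, Nfkbie and Bcl3). The following 4 sequences are shown because they hold such letters, and the fifth, of Rela, because it holds none. Each is written 5′ to 3′ on the strand of the gene, with matches in capitals (overlapping matches run together).
Nfkb2, chr19:46304487-46304786 (+ strand): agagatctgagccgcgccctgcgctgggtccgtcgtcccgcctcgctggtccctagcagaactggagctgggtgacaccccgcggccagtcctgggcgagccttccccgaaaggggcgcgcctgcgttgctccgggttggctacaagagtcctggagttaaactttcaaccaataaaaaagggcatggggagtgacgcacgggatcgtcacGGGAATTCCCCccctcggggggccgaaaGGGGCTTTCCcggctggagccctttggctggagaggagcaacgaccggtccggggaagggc
Rel, chr11:23770920-23771219 (- strand): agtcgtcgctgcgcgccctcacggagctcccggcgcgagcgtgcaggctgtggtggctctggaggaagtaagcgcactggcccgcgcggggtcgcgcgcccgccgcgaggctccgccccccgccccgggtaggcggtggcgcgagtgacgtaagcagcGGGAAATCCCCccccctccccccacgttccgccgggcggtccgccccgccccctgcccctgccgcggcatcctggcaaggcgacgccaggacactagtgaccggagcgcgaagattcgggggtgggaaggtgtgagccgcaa
Nfkbia, chr12:55492598-55492897 (- strand): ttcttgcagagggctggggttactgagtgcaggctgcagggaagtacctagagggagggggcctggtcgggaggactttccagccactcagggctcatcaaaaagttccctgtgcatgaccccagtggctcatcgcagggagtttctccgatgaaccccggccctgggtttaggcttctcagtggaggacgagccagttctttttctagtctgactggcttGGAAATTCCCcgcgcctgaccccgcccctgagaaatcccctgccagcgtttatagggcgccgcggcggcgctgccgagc
Bcl3, chr7:19822706-19823005 (- strand): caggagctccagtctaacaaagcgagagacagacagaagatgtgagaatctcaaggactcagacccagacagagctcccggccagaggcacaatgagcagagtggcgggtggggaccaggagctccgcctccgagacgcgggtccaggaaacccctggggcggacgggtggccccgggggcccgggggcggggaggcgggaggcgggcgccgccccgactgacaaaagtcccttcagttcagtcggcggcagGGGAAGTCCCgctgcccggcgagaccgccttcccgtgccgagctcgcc
Rela, chr19:5637291-5637590 (+ strand): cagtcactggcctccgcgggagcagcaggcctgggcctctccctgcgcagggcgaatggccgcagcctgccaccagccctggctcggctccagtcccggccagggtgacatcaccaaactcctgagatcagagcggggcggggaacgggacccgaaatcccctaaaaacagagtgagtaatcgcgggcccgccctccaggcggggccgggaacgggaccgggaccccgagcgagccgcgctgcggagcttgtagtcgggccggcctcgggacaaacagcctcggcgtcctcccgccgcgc
A match of letters is a description of the sequence and not a measured binding site. Nfkbia has 1 match, GGAAATTCCC, which begins at base 222 of the window. Bcl3 has 1, GGGAAGTCCC, at base 253. The windows of Rela and Nfkbib held no match.

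Several facts of the libraries stand before any result. Usp25 itself followed the genotype labels, with 38.5 FPKM in 139, 16.6 in 140, 2.65 in 826 and 1.71 in 850. Most markers of the labelled colon were near 0: of 12 listed markers of colon epithelium 9 were under 1 FPKM in every library, and Aqp8, Cdx1 and Zg16 were listed at 0 throughout, while the other 3 were highest in 826. Krt20 was listed at 4.31 and 3.11 FPKM in the controls against 52.4 and 7.35 in the knockouts, Guca2a at 0.341 and 0.868 against 16.6 and 3.89, both higher without overlap, and Vil1 reached 1.46 in 826. Limma's adjusted p was 0.960 for Krt20 and Guca2a, and Vil1 was not tested. All 10 listed markers of lung epithelium were above 0 in every library, with library medians of 68.1 to 121 FPKM. Ddx3y and Eif2s3y, which are Y-linked, were at 12.7 FPKM or more throughout, and Xist, a transcript of the inactive X, was at most 0.11 FPKM. The values below thus compare libraries by their genotype label, and are not taken as measurements of colon, of DSS treatment or of females. Library 139 stood apart, with 20556 genes above 0 against 15603 to 17242 in the others. Its neutrophil markers, 11 of 12 found, summed to 42009 FPKM, against 813 in 140 and 1330 to 2261 in the Usp25-/- libraries. Only Elane among the 11 was listed at 0, and only in 850. The summed markers of lung epithelium were lowest in 139, at 2324 FPKM against 4460 to 5336 in the others. So were those of macrophages, at 17162 against 34179 to 41478 FPKM, though 40% of the macrophage markers were highest in 139. Sums for T cells, B cells and smooth muscle were lowest in 139 too, and those for colon epithelium and endothelium were not.

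No gene of the family passed the test between the genotypes. The targeted gene Usp25 did not pass it either (limma adjusted p = 0.960), so not passing is no sign of equal levels. All 10 genes of the family had a lower mean in Usp25-/-, as did 46.5% of tested genes. Their median log2 fold change was -0.61 against 0.03 over all genes tested, on log2(FPKM + 1). Limma's adjusted p was 0.960 for 9 of them and 0.975 for Nfkbib, and 0 of 10 passed an adjusted p of 0.05, where 0% of all tested genes did. At an unadjusted p of 0.05 the count was also 0 of 10, against 3.12% of tested genes. In 3 of the 10 (Rela, Nfkbiz and Bcl3) both Usp25-/- libraries lay below both Usp25+/+ libraries, and 14.7% of tested genes were lower without overlap. All 10 genes were highest in library 139, as were 29.9% of tested genes. Without 139 the median of the 10 was 0.050, with 5 genes on each side of 0. The count of genes without overlap in either direction, 3 (33.8% of tested genes), was 7 without 139 (72.7%), 10 without 140 (80.8%), 6 without 826 (52.8%) and 3 without 850 (60.7%). A bulk library cannot tell fewer cells of a type from less RNA per cell.

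**Figure D1:**
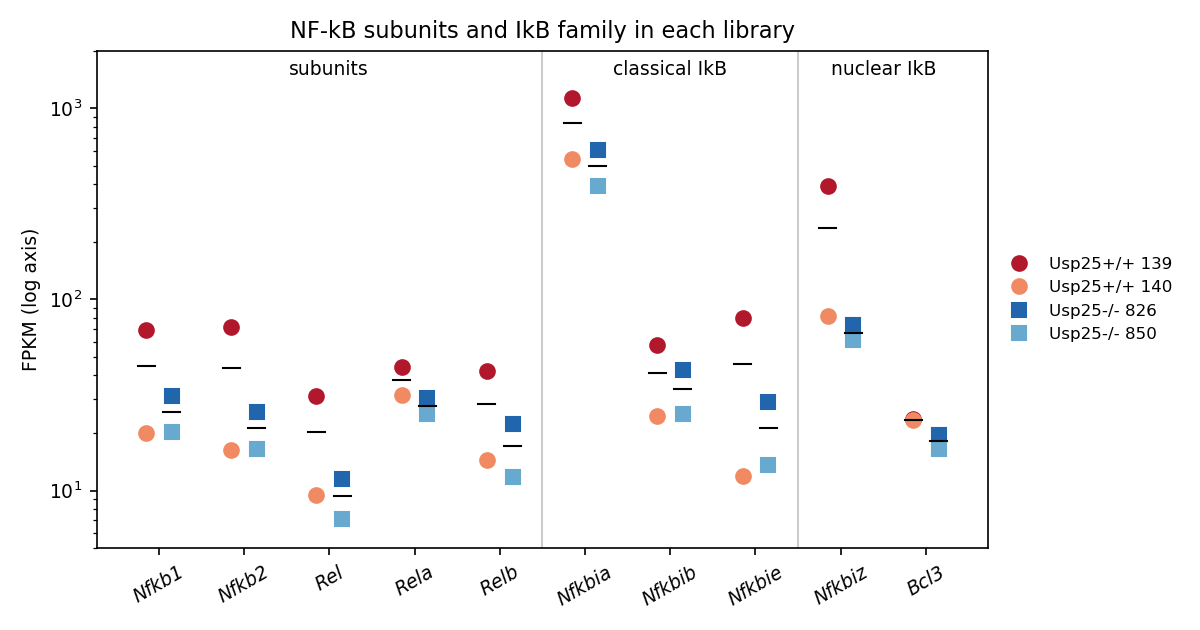
FPKM of the 10 genes (log axis) in the 2 Usp25+/+ libraries (circles) and the 2 Usp25-/- libraries (squares), with genotype means as black lines. Library 139 is the highest point for every gene, and the genotypes do not overlap in Rela, Nfkbiz and Bcl3.

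Among the subunits, Nfkb1 encodes p105, the precursor of p50, which pairs with RelA in the most common dimer. It lies on chr3:135247619-135354511 (build mm9, as for all gene positions from here on) on the minus strand and had 69.5 and 19.9 FPKM in the controls (139, then 140, here and below) against 31.4 and 20.2 in the knockouts (826, then 850). The genotypes overlapped, since 140 was the lowest of the 4 and nearly level with 850. The genotype difference (log2 fold change, knockouts minus controls, on log2(FPKM + 1)) was -0.55 (SE 0.64, limma adjusted p = 0.960), 0.33 without 139 and -1.43 without 140. Nfkb2 encodes p100, the precursor of p52 and itself a brake on RelB, and lies on chr19:46379227-46386580 on the plus strand. It stood at 71.5 and 16.4 against 25.8 and 16.5 FPKM, the same order of libraries as Nfkb1. The difference was -0.71 (SE 0.72), 0.32 without 139 and -1.74 without 140.

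Rel, which encodes c-Rel, a subunit best known from lymphocytes and myeloid cells, lies on chr11:23641514-23670970 on the minus strand. It had the lowest level of the 5 subunits in each library, at 31.3 and 9.45 FPKM in the controls against 11.5 and 7.12 in the knockouts. Here 826 lay above 140, so that the genotypes overlapped. The log2 fold change of -0.87 (SE 0.60) was the largest among the subunits, and it was -0.05 without 139 and -1.68 without 140. Relb, the partner of p52 in the noncanonical pathway, lies on chr7:20191566-20214787 on the minus strand. Its values were 42.2 and 14.5 FPKM in the controls against 22.4 and 11.7 in the knockouts. The Usp25-/- libraries differed from each other 1.91-fold, and 140 lay between them. The log2 difference between genotypes was -0.58 (SE 0.60), 0.15 without 139 and -1.32 without 140.

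Rela, which encodes the p65 subunit with the main transactivating domain, was the steadiest of the 5 subunits. The gene lies on chr19:5637483-5648130 on the plus strand and was listed at 44.1 and 31.6 FPKM in the controls against 30.3 and 25.2 in the knockouts. Both Usp25-/- libraries were below both Usp25+/+ libraries, though 140 and 826 were close. The log2 fold change was -0.42 (SE 0.32, limma adjusted p = 0.960), and ran from -0.65 without 140 to -0.18 without 139. Because the genotypes did not overlap, leaving out a library could not change its sign. The highest library of Rela was 1.75-fold above its lowest, while the other subunits spanned 3.49-fold (Nfkb1) to 4.39-fold (Rel). On log2(FPKM + 1), 49.5% of tested genes had a smaller range than Rela, against 89.0% for Nfkb1 and 92.7% for Nfkb2.

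Of the classical inhibitors, Nfkbia encodes IkB-alpha, the inhibitor that is degraded first and resynthesised fastest. It was the most abundant of the 10 transcripts in every library, ranking between place 48 (in 139) and place 182 (in 850) of all listed genes. The gene lies on chr12:56590398-56593634 on the minus strand, and its values were 1133 and 542 FPKM in the controls against 605 and 391 in the knockouts. Library 826 lay above 140, so the genotypes overlapped. The means were 838 ± 418 against 498 ± 152 FPKM (SD over 2 animals each), and the difference was -0.69 log2 units (SE 0.52, limma adjusted p = 0.960), or -0.16 without 139 and -1.22 without 140.

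Nfkbib encodes IkB-beta, which is released more slowly, and lies on chr7:29543270-29552531 on the minus strand. It was listed at 57.7 and 24.6 FPKM in the controls against 42.7 and 25.2 in the knockouts. Both Usp25-/- libraries lay between the 2 controls. Its log2 fold change of -0.20 (SE 0.52) was the nearest to 0 of the 10, and it was 0.40 without 139, -0.79 without 140 and 0.17 without 850. Nfkbie encodes IkB-epsilon, a later feedback inhibitor, and lies on chr17:45692665-45700118 on the plus strand. It varied most between the controls, at 79.8 and 11.99 FPKM, a 6.66-fold difference, and stood at 28.9 and 13.6 FPKM in the knockouts. Its Usp25-/- libraries also differed most among the 10 genes, by 2.13-fold. The log2 fold change was -0.63 (SE 0.92), -1.95 without 140 and 0.69 without 139, when 140 was below both Usp25-/- libraries.

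The nuclear IkB proteins do not hold dimers in the cytoplasm but modulate them on DNA. Nfkbiz encodes IkB-zeta, an inducible cofactor of secondary response genes such as Lcn2 and Il6, and lies on chr16:55811488-55839012 on the minus strand, on the chromosome of Usp25 and 21.2 megabases from it. It was listed at 391 and 81.5 FPKM in the controls against 73.2 and 61.04 in the knockouts. Library 139 was 4.80-fold above the next library, the widest such step in the family, and the other 3 lay within 1.34-fold of each other. The difference of -1.41 log2 units (SE 0.76, limma adjusted p = 0.960) was the largest of the 10, and it was -0.28 without 139 and -2.53 without 140.

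Bcl3, which binds p50 and p52 homodimers and can activate or repress with them, lies on chr7:20393811-20408119 on the minus strand, 0.179 megabases from Relb. It was listed at 23.6 and 23.5 FPKM in the controls against 19.6 and 16.5 in the knockouts. This was the one gene of the 10 in which 139 and 140 were level, and the genotypes did not overlap. The means were 23.5 ± 0.096 against 18.1 ± 2.16 FPKM (SD, 2 animals each). The log2 difference was -0.37 (SE 0.28, limma adjusted p = 0.960), and it ranged from -0.48 without 826 to -0.25 without 850. Its sign could not change here, since the genotypes did not overlap. With 2 libraries in each genotype an exact permutation test cannot give a two-sided p below 0.333.

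**Figure D2:**
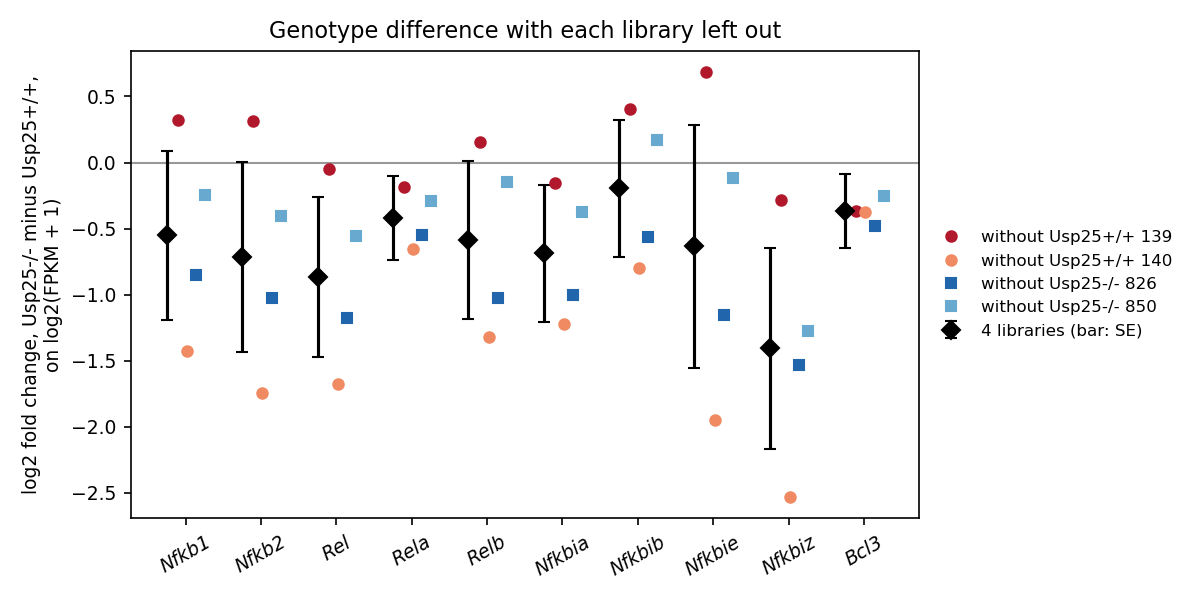
Log2 fold change of each gene between the genotypes in all 4 libraries (black diamonds, bars are limma standard errors) and with each library left out (coloured points). Without 139 the values of Nfkb1, Nfkb2, Relb, Nfkbib and Nfkbie lie above 0, while those of Bcl3 lie between -0.48 and -0.25 in all fits. The genotypes of Bcl3 do not overlap, so the sign of its values could not change.

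Without 139, the 10 genes did not share a direction between the genotypes. Among the other 3 libraries, 826 was highest in 7 of the 10 genes (36.1% of tested genes) and 140 in Rela, Nfkbiz and Bcl3. Library 826 lay above 850 in all 10, as it did in 48.5% of tested genes. The 826 to 850 ratio ran from 1.18-fold for Bcl3 to 2.13-fold for Nfkbie. Both Usp25-/- libraries were above 140 in 4 genes (Nfkb1, Nfkb2, Nfkbib and Nfkbie, against 35.8% of tested genes), and below it in 3 (against 37.0%). The summed neutrophil markers had the same order of these libraries as Nfkb1, Nfkb2, Nfkbib and Nfkbie, with 826 highest, 850 next and 140 lowest. Most of that sum was S100a8 and S100a9 (838 and 1013 of 2261 FPKM in 826), which had this order, as had Retnlg, Il1r2 and Clec4d. The other markers did not. Among these libraries Cxcr2, Csf3r, Mmp8 and Mpo were highest in 850, Elane was highest in 140, and Trem1 was lowest in 850. The number of genes above 0 also had the order 826, 850, 140, at 17242, 15805 and 15603. Neither the part of neutrophil RNA nor that of the number of genes detected was tested in these differences.

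Since FPKM is scaled by transcript length, the genes can also be set side by side within a library. The 5 subunits summed to 259 and 91.8 FPKM in Usp25+/+ and to 121 and 80.8 FPKM in Usp25-/-, and the 5 IkB genes to 1685 and 684 against 769 and 507 FPKM. The ratio of these sums moved less than the sums themselves, at 6.52 and 7.45 in the controls against 6.34 and 6.28 in the knockouts. Both Usp25-/- values were below both controls. The difference in the log2 ratio was -0.14 (exact permutation p = 0.333, two-sided, the smallest possible here). Nfkbia alone gave 4.38 and 5.91 against 4.98 and 4.84 FPKM per FPKM of subunits, with the controls on either side of the Usp25-/- libraries.

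The shares of Nfkb1, Nfkb2 and Rela in the subunit pool were furthest apart between the 2 controls. Rela made up 17.1% of the summed subunit FPKM in 139 and 34.4% in 140, with 25.0% in 826 and 31.2% in 850 between them. Nfkb2 went the other way, with 27.7% in 139, 17.8% in 140, 21.3% in 826 and 20.4% in 850. The share of Nfkb1 lay between 21.7% and 26.9% and that of Relb between 14.5% and 18.5%, with both ends of the range of Relb in the knockouts. Rel had a share of 12.1% and 10.3% in the controls against 9.47% and 8.81% in the knockouts, the one subunit share in which the genotypes did not overlap (exact permutation p = 0.333).

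Within the IkB family, Nfkbia held 67.2% of the summed FPKM in 139 and between 77.1% and 79.3% in the other 3 libraries. Nfkbiz held 23.2% in 139 and 9.52% to 12.04% elsewhere. The ratio of Nfkbiz to Bcl3, the nuclear IkB genes, was 16.6 in 139 and 3.47 to 3.74 in the others. Nfkbib had a share of 3.42% and 3.59% in Usp25+/+ and 5.55% and 4.96% in Usp25-/-, without overlap (exact permutation p = 0.333). Nfkbia per Nfkbib was 19.7 and 22.1 against 14.2 and 15.5, also without overlap. Of 21 such sums, ratios and shares compared, 6 reached the smallest possible p. That p is reached wherever the genotypes do not overlap, which in either direction held for 33.8% of tested genes. The 6 include the ratio of IkB genes to subunits both as such and as its log2. The Benjamini-Hochberg adjusted exact permutation p was 1 for each of the 6.

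**Figure D3:**
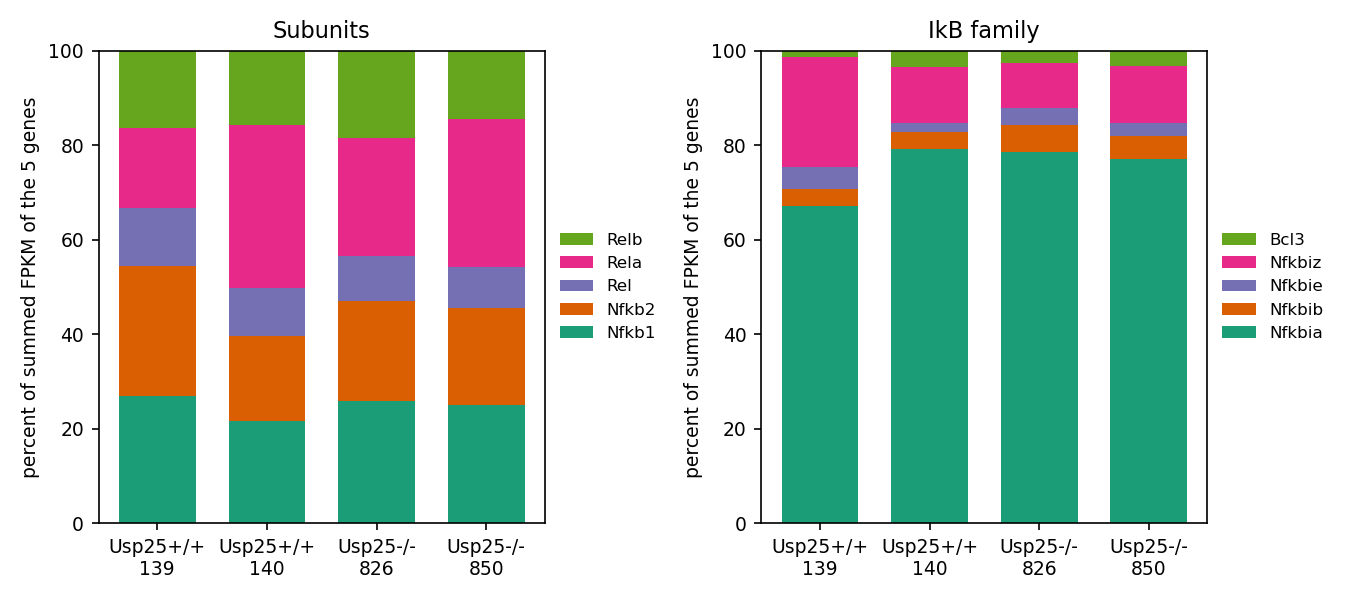
Share of each gene in the summed FPKM of the 5 subunits (left) and the 5 IkB family genes (right), in percent, for each library. Rela has its smallest share (17.1%) and Nfkbiz its largest (23.2%) in library 139, and Nfkbia takes most of the IkB sum in every library.

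The genes around the family were read from 6 pathway lists, and none of their members passed an adjusted p of 0.05 (0% of tested genes did). For the counts below, 46.5% of all tested genes had a lower mean in Usp25-/-, and 29.9% were highest in 139. Where a gene is given a value without 139 here, its value without 140 was further below 0 than with all 4 libraries. Of 10 ligands, 7 were tested, and all 7 had a lower mean in Usp25-/-, with a median log2 fold change of -0.81 that became -0.002 over the 8 tested without 139 and -1.72 without 140. All 7 were highest in 139. Tnf, a main activator of NF-kB and also its target, was listed at 305 and 69.2 FPKM in the controls against 43.7 and 27.1 in the knockouts. The genotypes did not overlap in Tnf. The log2 difference was -2.05 (SE 0.75, limma adjusted p = 0.960), and -0.99 without 139. For Il1a, an IL-1 receptor ligand, the log2 difference was -1.68 (SE 1.27) and turned to 0.12 without 139, and for the TNF family ligand Tnfsf14 it was -1.21 (SE 0.58) and -0.71.

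Of 16 receptors and adaptors 15 were tested, with 13 lower and 2 higher means and a median of -0.52 (-0.16 without 139, -0.81 without 140). In 7 of the 15 both Usp25-/- libraries were below both controls (Tnfrsf1a, Tnfrsf1b, Myd88, Traf2, Traf3, Tnfrsf11a and Cd40), where 14.7% of tested genes were. Tnfrsf1b, the second TNF receptor, stood at 182 and 72.5 against 46.9 and 55.0 FPKM. Its difference was -1.16 log2 units (SE 0.51, limma adjusted p = 0.960), and -0.50 without 139. Cd40, a costimulatory receptor that feeds the noncanonical pathway, stood at 13.02 and 3.53 against 0.962 and 2.84 FPKM. Il1rap, the shared chain of IL-1 family receptors, was high in 139 alone, at 49.5 FPKM there and 4.10 to 6.30 FPKM in the other 3 libraries.

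Among the genes that carry the signal to IkB, 11 genes all tested that include the scaffold Ikbkg and the adaptors Tab1, Tab2 and Tab3 beside kinases, 9 had a lower mean in Usp25-/- and 2 a higher one, with a median of -0.37 (-0.07 without 139, -0.84 without 140). The log2 difference was 0.03 (SE 0.30) for Chuk and 0.004 (SE 0.30) for Ikbkb, the core kinases IKK-alpha and IKK-beta. Ikbke, an inducible IKK-related kinase, was listed at 135 and 4.71 FPKM in the controls against 10.8 and 11.3 in the knockouts. Map3k8, the kinase that p105 holds in check, stood at 47.4 and 30.8 against 19.8 and 21.7 FPKM without overlap. Its log2 difference was -0.85 (SE 0.33, limma adjusted p = 0.960), and -0.55 without 139. For Tbk1, the relative of Ikbke, the log2 difference was -0.88 (SE 0.47), and -0.27 without 139.

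The machinery that breaks down IkB, 8 genes all tested, had a median log2 fold change of 0.09 (0.23 without 139, 0.32 without 140, -0.021 without 826 and 0.20 without 850), with 3 genes lower and 5 higher, and 2 of the 8 were highest in 139. Skp1a, an adaptor of the SCF ubiquitin ligase, was listed at 58.5 and 61.4 FPKM in the controls against 105 and 89.6 in the knockouts. The log2 difference was 0.69 (SE 0.30, limma adjusted p = 0.960). Cops5, of the signalosome that regulates such ligases, and Rbx1, their RING subunit, had 0.55 (SE 0.30) and 0.28 (SE 0.31). These 3 genes were higher without overlap, as were 19.0% of tested genes. Btrc, which recognises phosphorylated IkB, was at 1.61 and 2.96 against 2.70 and 2.30 FPKM. Fbxw11, also on this list, was higher, at 20.8 and 13.4 against 16.7 and 14.0 FPKM.

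Among 16 regulators, all tested, 12 had a lower mean and 4 a higher one, with a median of -0.18 (-0.002 without 139, -0.59 without 140). Most are brakes on the pathway, but the list also holds Rnf31, Rbck1 and Sharpin, which encode the linear ubiquitin ligase that promotes IKK activation. Tnfaip3 encodes A20, a ubiquitin-editing brake on IKK activation, and was listed at 582 and 158 FPKM in the controls against 142 and 110 in the knockouts. The 4 libraries stood in the order of those of Nfkbiz. For A20 transcripts the log2 difference was -1.28 (SE 0.67, limma adjusted p = 0.960), and -0.34 without 139. Nfkbid, which encodes the nuclear IkB protein IkB-NS, had values of 154 and 63.1 against 51.2 and 37.3 FPKM. This difference was -1.15 log2 units (SE 0.51), and -0.52 without 139. Tnip1, a partner of A20, stood at 102 FPKM in 139 and at 18.1 to 26.2 FPKM elsewhere. The 3 ligase genes had log2 fold changes between -0.18 and 0.03.

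The 34 target genes were all tested, and 27 had a lower mean in Usp25-/- and 7 a higher one. Their median was -0.87, 0.14 over the 32 tested without 139 and -1.88 without 140. In 28 of the 34 the highest library was 139 (29.9% of tested genes), and 6 were lower and 1 higher without overlap (14.7% and 19.0% of tested genes). Lcn2, a siderophore-binding protein that neutrophils also store, was listed at 5537 FPKM in 139 and at 82.8 to 105 FPKM in the other 3 libraries. Saa3, an acute-phase protein, stood at 4990 FPKM in 139 and at 43.5 to 110 FPKM elsewhere, and Nos2, the inducible nitric oxide synthase, at 67.7 and at 0.501 to 1.61 FPKM. For Lcn2 the log2 difference was -2.89 (SE 1.89), for Saa3 -2.54 (SE 2.16) and for Nos2 -2.71 (SE 1.54), the largest of the list, and without 139 they were 0.10, 0.87 and -0.30. Il6, named above with Nfkbiz, stood at 103 and 38.3 against 66.7 and 58.1 FPKM and did not have the order of libraries of Nfkbiz. The log2 difference of Il6 was -0.01 (SE 0.52), and 0.69 without 139. Lists were chosen with earlier results of these data known, and the neutrophil markers were highest in 139 in 9 of 9 tested genes. Their part in these values was not tested.

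**Figure D4:**
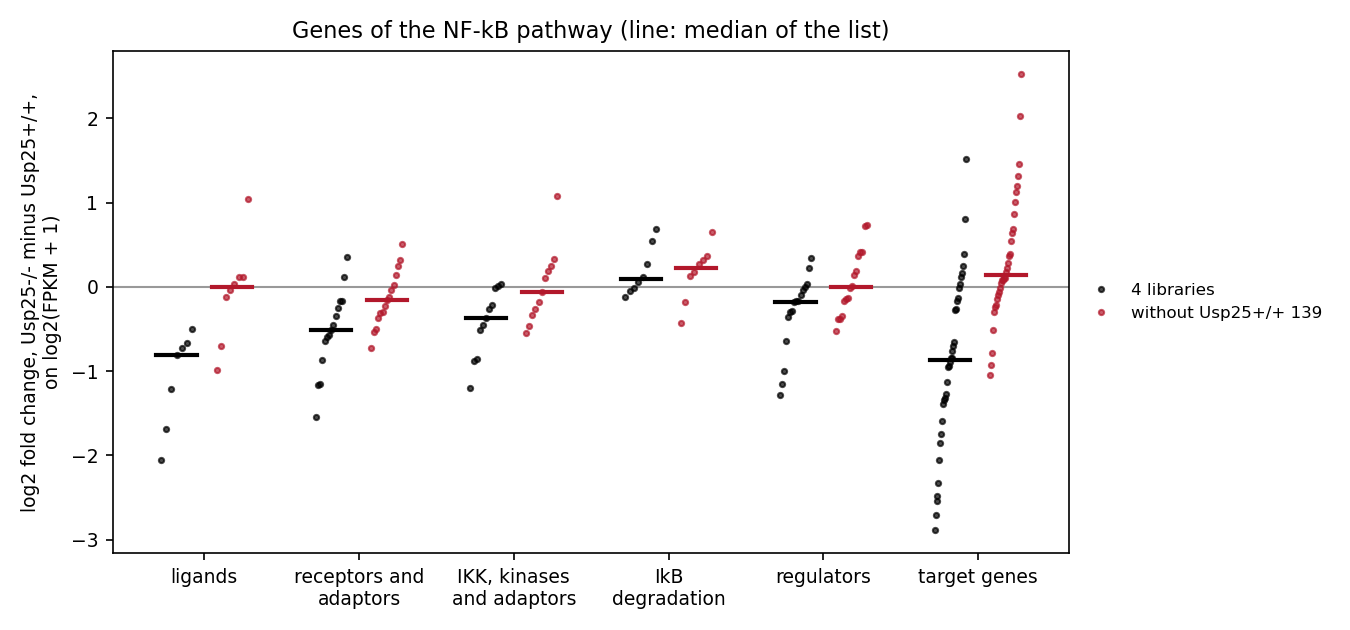
Log2 fold change between the genotypes of each tested gene in the 6 pathway lists (points, lines are medians), in all 4 libraries (black) and without library 139 (red). The medians of ligands (-0.81), receptors (-0.52) and targets (-0.87) lie near -0.002, -0.16 and 0.14 without 139, and that of IkB degradation moves from 0.09 to 0.23.

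The genes whose levels most resembled those of Nfkbiz and of Nfkbia over the 4 libraries were found by the root mean square difference of centred log2(FPKM + 1) values among 12001 genes. With 4 libraries many genes share a pattern, and the measure is a description. Its scale understates changes of low genes, so their fold differences in FPKM can be wider than those of Nfkbiz or Nfkbia. Nearest to Nfkbiz were Pram1 (0.06), Egr3 (0.07), F10 (0.08), Fam167a (0.10) and Ddx60 (0.10), against a median of 1.14 over the genes compared. Egr3, an immediate early transcription factor, was listed at 16.6 and 2.28 against 2.04 and 1.67 FPKM. F10, coagulation factor X, stood at 273 and 50.3 against 45.6 and 36.3 FPKM. Nearest to Nfkbia were A930005H10Rik (0.04), Olr1 (0.07), Pde4b (0.07), Fah (0.08) and 4930581F22Rik (0.09), against a median of 0.66. Pde4b, a phosphodiesterase that degrades cyclic AMP, stood at 152 and 62.5 against 73.5 and 47.7 FPKM, the order of libraries of Nfkbia. Within the family, the nearest to Nfkbia was Relb (0.18) and the nearest to Nfkbiz was Rel (0.37).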

How the data were processed

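Libraries were paired-end and not stranded, per the labels' protocols, so reads of a gene cannot be told apart from those of one that overlaps it or lies antisense to it. Cutadapt, TopHat2 2.1.1, Cufflinks and build mm9 are named, per the submitters' processing notes. The sources used here give neither annotation nor filters. The values deposited by the authors, 1 column per animal, are taken as FPKM because Cufflinks is named. The unit is stated by neither header nor label. Depth is unknown, so that no counting interval is given.

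The log2(FPKM + 1) scale was used, on which changes of low genes are understated. Genes averaging at least 1 FPKM were compared between genotypes with limma 3.58.1 in R 4.3.3 (eBayes with trend, two-sided, Benjamini-Hochberg adjustment over 12011 genes), which was tested on simulated data. Ratios were compared with exact permutation tests. The labels name separate animals, and no pairing was used. Named genes were the 10 family members, Usp25, the 3 tested genes of each pathway list that differed most, and 5 genes nearest to Nfkbiz and to Nfkbia. Chuk, Ikbkb, Btrc, Fbxw11, Il6, the linear ubiquitin ligase genes and receptors without overlap were named after their values were seen. Members and lists, 17 lists with 177 of 178 symbols found, were chosen with earlier results of these data known. Positions are from GENCODE vM1 (mm9), and start regions from RefSeq (GRCm38.p6). Alternatives were other pseudocounts, filters, scalings and variance models, and leaving out each library.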

Additional observations from a re-analysis of the deposited data

How the results depend on the processing

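Under every other pseudocount, filter, scaling and variance model tried, and with each library left out, 0 of the 10 genes and 0 of all tested genes passed limma's adjusted p of 0.05. At an unadjusted p of 0.05 the count over all genes was 375, between 227 (mean of at least 5 FPKM) and 569 (no filter) under the other settings with all 4 libraries, and between 103 (without 826) and 2577 (without 140) when a library was left out. The filters and variance models leave the log2 fold change of a gene unchanged, so they could not alter its direction. Under each other pseudocount and scaling, all 10 genes kept a lower mean in Usp25-/-. Leaving out a library moved their median between -1.37 (without 140) and 0.050 (without 139). With a library left out, log2 fold changes ran from -1.43 (without 140) to 0.33 (without 139) for Nfkb1, from -1.74 to 0.32 for Nfkb2, from -1.32 to 0.15 for Relb, from -0.79 to 0.40 for Nfkbib and from -1.95 to 0.69 for Nfkbie, with the same libraries at each end, from -1.68 to -0.05 for Rel and from -1.22 to -0.16 for Nfkbia, and without 850 that of Nfkbib was 0.17. The count of genes without overlap, 3, was between 3 and 10 when a library was left out, where 1 library stands for a genotype and 52.8% to 80.8% of tested genes do not overlap. The median of the IkB degradation list ran from -0.021 (without 826) to 0.32 (without 140), that of the target genes from -1.88 (without 140) to 0.14 (without 139), that of the ligands from -1.72 to -0.002, that of the kinases and adaptors from -0.84 to -0.07 and that of the regulators from -0.59 to -0.002, with the same libraries at each end. The difference in the log2 ratio of IkB genes to subunits was -0.16 after quantile normalization, and between -0.24 and -0.05 when a library was left out. Why these values moved was not tested. No paired analysis was possible because the labels give no litter or pair of animals. Depth is unknown, and 2 animals in each genotype limit every comparison.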
